A study of Mus musculus with 7 samples.

Results

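Small nucleolar ribonucleoproteins (snoRNPs) modify ribosomal and spliceosomal RNA at sites chosen by the guide RNA (snoRNA) that each particle carries. Box C/D particles hold the methyltransferase Fbl with Nop56 and Nop58 and add a methyl group to the ribose. Box H/ACA particles hold the pseudouridine synthase Dkc1 with Nhp2, Nop10 and Gar1 and turn uridine into pseudouridine. The H/ACA proteins also bind the RNA of telomerase, and germline defects of DKC1, NHP2 and NOP10 cause dyskeratosis congenita, an inherited bone marrow failure. Naf1 and Shq1 help to assemble H/ACA particles, and Znhit6 (also called BCD1) acts in the assembly of box C/D particles. DDX41 is an RNA helicase to which roles in snoRNA processing and ribosome biogenesis have been ascribed, so the question was whether the loss of 1 Ddx41 allele moved the transcripts of this machinery.

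The 10 genes were Nop56, Nop58, Fbl, Dkc1, Nhp2, Nop10, Gar1, Naf1, Shq1 and Znhit6. They were taken by symbol alone from the 24421 gene symbols of the deposited counts, but the list was chosen with earlier results of these data known. All 10 passed the filter on low counts that left 13340 genes. RNA-seq was performed on LSK (Lin-Sca1+Kit+) cells, the marrow fraction that holds stem cells and early multipotent progenitors. BoyJ recipient mice were lethally irradiated and received marrow mononuclear cells from RosaCreERT2 donors, whose tamoxifen-activated recombinase is made in nearly all cell types. The donors of 4 samples had wild-type Ddx41 alleles (Ddx41+/+, replicates 1 to 4), and those of 3 samples had 1 floxed and 1 wild-type allele (Ddx41+/-, replicates 6 to 8). Recipients in both groups were given 1 mg tamoxifen daily in 2 rounds of 5 days, so the control cells also carried the recombinase and saw the drug, and cells were sorted 8 weeks after transplant. Donor age is not given in the sources used here. The labels do not say whether each sample is 1 mouse, so the spread between samples that the tests rest on may in part be technical.

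Total counts were 32234499 to 43751290 per sample, the ribosomal RNA precursor Rn45s took 0.623% to 2.92% of them, and 29 of 13340 genes had a Benjamini-Hochberg adjusted p under 0.05 in edgeR (16 higher and 13 lower in Ddx41+/-). The sorted fraction held Kit at 427 to 505 CPM (counts scaled to library size) and Cd34 at 647 to 830 CPM over both genotypes, whereas Ly6a, which encodes Sca1, was at 13.3 to 30.5 CPM. The summed CPM of 3 T cell markers was 1.19 to 3.16 over all samples. Other lists that a Lin- gate should leave low were higher. The 11 neutrophil markers summed to 818 to 2375 CPM and the 6 B cell markers to 33.9 to 62.6 CPM. Those of macrophages and red cells summed to 9.73 to 22.8 CPM and 24.7 to 58.0 CPM.

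Several snoRNA genes lie inside these protein genes and are released from the host's introns, so the hosts carry both proteins and guides of the pathway. GENCODE placed 10 snoRNA genes within the members on the same strand in GRCm38, with 5 in Nop56, 4 in Nop58 and 1 in Dkc1, and 9 of the 10 fell outside the exons of the host's coding transcripts. The 4 that the counts list, and the H/ACA snoRNA of Nop56, are printed 5′ to 3′ to show what these particles recognise. Capitals mark a box C match (TGATG or GATGA), the box D match (CTGA) and, in Gm24451, the ACA box near the 3′ end. Snord110, Gm24451 and Snord57 lie in Nop56 (chr2:130275506-130275573, chr2:130276237-130276369 and chr2:130278016-130278087, plus strand). Snord70 and Snord11 lie in Nop58 (chr1:59691934-59692020 and chr1:59704790-59704873, plus strand).
Snord110: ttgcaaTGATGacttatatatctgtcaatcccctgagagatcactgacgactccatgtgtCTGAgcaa
Snord57: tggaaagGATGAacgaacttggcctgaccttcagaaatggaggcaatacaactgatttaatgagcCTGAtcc
Snord70: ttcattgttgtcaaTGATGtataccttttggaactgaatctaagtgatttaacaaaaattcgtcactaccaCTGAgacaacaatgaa
Snord11: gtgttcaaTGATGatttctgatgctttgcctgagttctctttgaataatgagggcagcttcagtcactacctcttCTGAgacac
Gm24451: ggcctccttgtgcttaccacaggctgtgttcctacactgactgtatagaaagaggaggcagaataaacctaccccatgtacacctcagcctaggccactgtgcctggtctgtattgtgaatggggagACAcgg

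Of the 10 snoRNA genes, 8 held both a box C and a box D match within 25 bases of the ends and 1 held the ACA box. Poly(A) selection does not capture mature snoRNAs well, and what the counts at these loci derive from was not tested. Counts in Ddx41+/+ replicates 1 to 4 and Ddx41+/- replicates 6 to 8 were 12, 7, 0, 27 and 10, 24, 12 for Snord110, and 13, 17, 6, 50 and 11, 5, 34 for Snord57. The ranges overlapped for both guides. The log2 fold changes (Ddx41+/- over Ddx41+/+) were 0.41 (SE 0.87) for Snord110 and -0.52 (SE 0.76) for Snord57, with edgeR adjusted p-values of 0.910 and 0.860, and standard errors of this size leave large changes in either direction undetectable at this depth. Snord70 and Snord11 did not reach the filter, with at most 9 counts in any sample and none in 3 and 4 of the samples, respectively.

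Ddx41 itself checked the genotypes. It stood at 92.8, 98.8, 93.3 and 107 CPM in Ddx41+/+ replicates 1 to 4 and at 68.1, 64.4 and 69.5 CPM in Ddx41+/- replicates 6 to 8. Every Ddx41+/- sample was below every Ddx41+/+ sample, and the fitted level was 68.8% of that in Ddx41+/+ (log2 fold change -0.54, SE 0.071, edgeR adjusted p = 0.0052).

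None of the 10 snoRNP protein genes passed the test between genotypes. Over all genes tested, 0.217% had an adjusted p under 0.05, 10.6% had an unadjusted p under 0.05 and 10.1% had CPM ranges that did not overlap between the genotypes, and the members' count was 0 of 10 by each of these measures. Their adjusted p-values were 0.547 to 0.996 and the smallest unadjusted p, that of Znhit6, was 0.0846 in the edgeR quasi-likelihood test. Their median log2 fold change was -0.013, beside -0.0048 over all genes tested, with 4 members above 0 and 6 below. The 95% intervals bounded the change, since 8 of the 10 lay wholly between 80% and 125% of the Ddx41+/+ level, against 45.4% of all genes and 78.7% of the 6245 genes in the members' range of CPM. The interval of each member lay above the fitted log2 fold change of Ddx41. So did those of 10289 of the 13340 genes tested and of 6187 of the 6245 genes in that range. This was not particular to the members. Ddx41 had an interval of its own, from -0.69 to -0.39 on the log2 scale. The lower bounds of Shq1 (-0.44) and Znhit6 (-0.41) fell inside it.

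**Figure D1:**
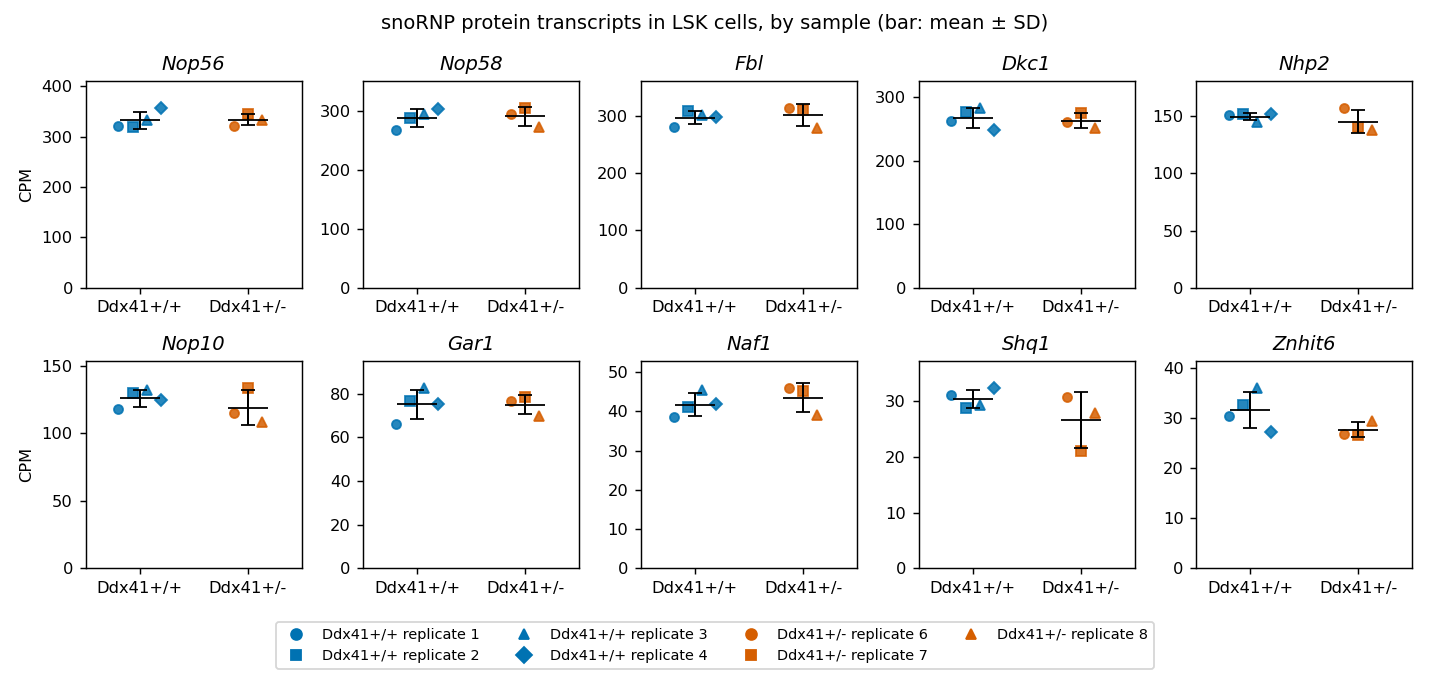
CPM (y axis, from 0) of each snoRNP protein gene in the 4 Ddx41+/+ and 3 Ddx41+/- samples, with a marker per sample and bars for mean and SD. The genotypes overlap in all 10 panels, and the lowest Shq1 value is Ddx41+/- replicate 7.

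The 3 box C/D core transcripts were nearly level across the 7 samples. Nop56 (chr2:130274430-130279313, plus strand), the scaffold next to box C'/D' of the guide, was measured at 322, 320, 333 and 357 CPM in Ddx41+/+ and at 322, 345 and 334 CPM in Ddx41+/-. The Ddx41+/+ mean was 333 ± 17.2 CPM (SD, n = 4), against 334 ± 11.5 CPM (SD, n = 3). Ddx41+/+ replicate 4 was the highest, and the Ddx41+/- values fell inside the Ddx41+/+ range. The fit put Ddx41+/- at 100.3% of Ddx41+/+ (95% interval 91.9% to 109.5%, edgeR adjusted p = 0.987).

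Nop58 (chr1:59684971-59719044, plus strand) is the paralogue that contacts the box C/D motif. It was at 268, 287, 295 and 304 CPM in Ddx41+/+ and at 295, 305 and 273 CPM in Ddx41+/-. The highest sample was of one genotype and the lowest of the other, and the ranges overlapped. The 95% interval of the Ddx41+/- level was 91.9% to 110.7% of Ddx41+/+ (log2 fold change 0.012, SE 0.063).

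Fbl (chr7:28169710-28179269, plus strand) is fibrillarin, the methyltransferase of the particle. Its values were 281, 309, 301 and 297 CPM in Ddx41+/+ and 314, 311 and 279 CPM in Ddx41+/-, so the Ddx41+/- samples held both its highest and its lowest value. The Ddx41+/- level was within 92.7% to 111.1% of Ddx41+/+ (log2 fold change 0.021, SE 0.062, edgeR adjusted p = 0.938). The annotation also holds the pseudogene Fbl-ps2, and how the counting treated reads shared with it is not stated.

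Among the H/ACA core transcripts, Dkc1 (chrX:75095854-75109777, plus strand), the catalytic subunit dyskerin, was at 263, 276, 283 and 248 CPM in Ddx41+/+ and at 260, 276 and 252 CPM in Ddx41+/-. The 3 Ddx41+/- values lay inside the range of the 4 Ddx41+/+ values. The interval was 89.6% to 107.8% of the Ddx41+/+ value, at a log2 fold change of -0.025 (SE 0.063).

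Nhp2 (chr11:51619735-51623714, plus strand) binds the guide RNA and was at 150, 152, 144 and 151 CPM in Ddx41+/+ and at 157, 140 and 138 CPM in Ddx41+/-. The Ddx41+/- samples spread wider and fell on both sides of the Ddx41+/+ range. The interval was 88.4% to 106.7% (log2 fold change -0.043, SE 0.064). Leaving out Ddx41+/- replicate 6 gave -0.10, and leaving out replicate 8 gave -0.0084.

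Nop10 (chr2:112261926-112263269, plus strand), a small protein bound to dyskerin, was at 118, 130, 132 and 125 CPM in Ddx41+/+ and at 115, 133 and 109 CPM in Ddx41+/-. Ddx41+/- replicates 6 and 8 were below every Ddx41+/+ sample while replicate 7 was above all of them. The means were 126 ± 6.27 CPM (SD, n = 4) and 119 ± 12.9 CPM (SD, n = 3), and the interval was 84.4% to 105.4% (log2 fold change -0.085, SE 0.076, edgeR adjusted p = 0.743). Without Ddx41+/- replicate 7 the log2 fold change was -0.18, and without replicate 8 it was -0.022.

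Gar1 (chr3:129824912-129831396, minus strand), which joins last in place of Naf1 and is needed for catalysis, was at 66.1, 76.7, 82.6 and 75.3 CPM in Ddx41+/+ and at 76.7, 78.5 and 70.05 CPM in Ddx41+/-. The lowest and the highest sample were both Ddx41+/+. The means of the genotypes were 75.2 ± 6.82 CPM (SD, n = 4) and 75.1 ± 4.46 CPM (SD, n = 3), with an interval of 88.8% to 112.4%.

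The assembly factors had lower counts and wider intervals. Naf1 (chr8:66860217-66890564, plus strand), which holds the place of Gar1 in immature H/ACA particles, was at 38.5, 41.1, 45.5 and 41.9 CPM in Ddx41+/+ and at 45.9, 45.3 and 39.2 CPM in Ddx41+/-. It had the highest fold change of the 10 members, at 0.058 on the log2 scale (SE 0.088, interval 91.5% to 118.5%, edgeR adjusted p = 0.866), and its samples were interleaved. That value ranged from 0.017 when Ddx41+/- replicate 6 was left out to 0.13 when replicate 8 was.

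Shq1 (chr6:100568256-100671157, minus strand), the chaperone of dyskerin before it meets RNA, was at 31.1, 28.8, 29.3 and 32.4 CPM in Ddx41+/+ and at 30.8, 21.0 and 27.9 CPM in Ddx41+/-. Ddx41+/- replicate 7 was well below the rest, and replicate 6 was inside the Ddx41+/+ range. The fitted Ddx41+/- level was 87.6% of Ddx41+/+ (interval 73.8% to 103.9%, log2 fold change -0.19, SE 0.117, edgeR adjusted p = 0.590). Without Ddx41+/- replicate 7 the log2 fold change was -0.051, and without replicate 6 it was -0.31 with an edgeR adjusted p of 0.293.

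Znhit6 (chr3:145576205-145604795, plus strand) was at 30.4, 32.6, 35.9 and 27.3 CPM in Ddx41+/+ and at 26.9, 26.7 and 29.4 CPM in Ddx41+/-. Replicates 6 and 7 of Ddx41+/- were the lowest of all, but Ddx41+/+ replicate 4 was below Ddx41+/- replicate 8. The fitted Ddx41+/- level was 87.7% of Ddx41+/+ (interval 75.5% to 102.0%, log2 fold change -0.19, SE 0.103, edgeR adjusted p = 0.547). It was -0.12 without Ddx41+/+ replicate 3 and -0.25 without Ddx41+/+ replicate 4. The intervals of Shq1 and Znhit6 were the only ones of the 10 that went below 80%. For these 2 genes falls to those lower bounds were not excluded with this number of samples.

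**Figure D2:**
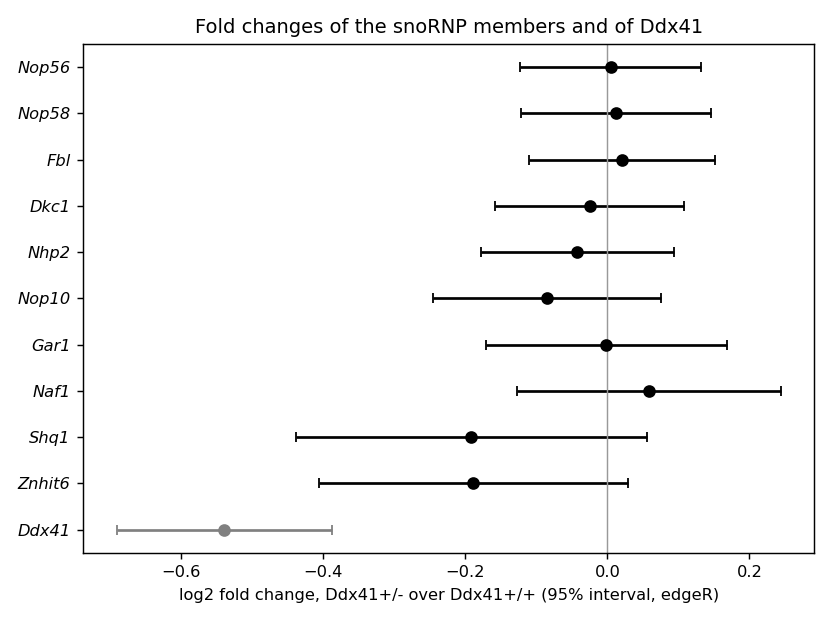
log2 fold change of each snoRNP protein gene and of Ddx41 (x axis, Ddx41+/- over Ddx41+/+), with points for the edgeR estimate and bars for its 95% interval. The 10 members lie between -0.19 and 0.058 with intervals that include 0, and Ddx41 lies at -0.54.

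The spread of the members was described over all 7 samples and within genotype. The highest of the 7 samples was 1.12 to 1.25 times the lowest for 8 of the members, 1.35 times for Znhit6 and 1.54 times for Shq1. The median coefficient of variation within genotype was 6.55% for the 10 members, beside 9.98% for all genes tested and 6.87% for the genes in the members' range of CPM, so their spread was close to that of other genes at their level. A log2 fold change within 0.1 of 0 was seen in 8 of the 10 members, in 47.3% of all genes tested and in 64.5% of the genes in that range.

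**Figure D3:**
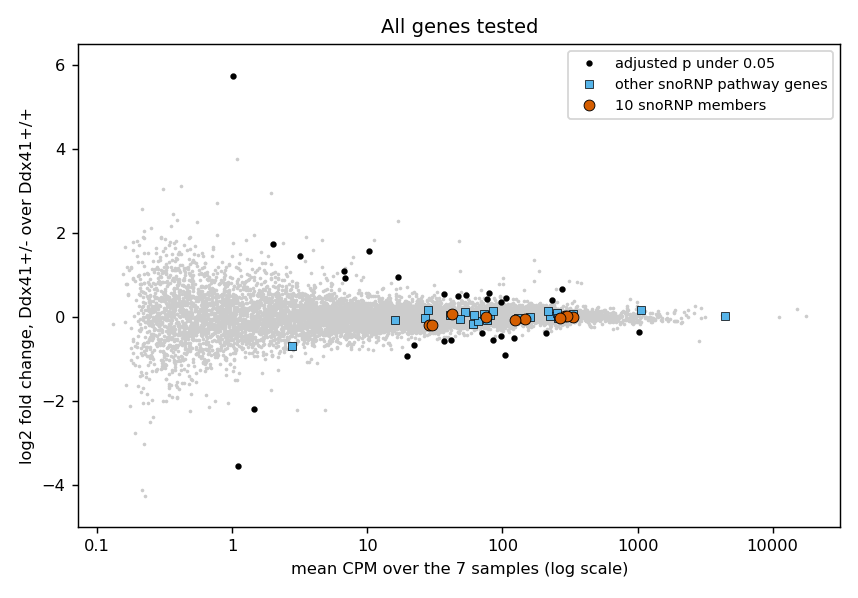
log2 fold change (y axis, Ddx41+/- over Ddx41+/+) against mean CPM over the 7 samples (x axis, log scale) for the 13340 genes tested, in gray, with black points for adjusted p under 0.05, squares for the other snoRNP pathway genes and large circles for the 10 members. The members lie along 0 and none of them is among the 29 genes called.

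Levels of different genes were compared per transcript length, as RPKM over the longest principal transcript. The 7 core transcripts lay at mean levels of 59.1 to 250 RPKM, and the 3 assembly factors lay below all of them, at 14.2 RPKM for Naf1, 12.8 RPKM for Znhit6 and 4.22 RPKM for Shq1. Fbl was the highest at 250 RPKM, followed by Nop56 (178 RPKM), Nop58 (169 RPKM), Nhp2 (142 RPKM), Nop10 (111 RPKM), Dkc1 (94.6 RPKM) and Gar1 (59.1 RPKM). The ranges over samples overlapped for the neighbours Nop56 and Nop58, Nop10 and Dkc1, and Naf1 and Znhit6. When all annotated exons of a gene set its length, the order within the core changed and Nhp2 came first, but the assembly factors kept ranks 8 to 10.

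The proportions of the subunit transcripts within each particle's core overlapped between the genotypes. The C/D core was taken here as Fbl, Nop56 and Nop58. Snu13, also a C/D core protein (mean 69.2 RPKM), was left out, so shares of the full core would be smaller. Of the summed RPKM without Snu13, Fbl made up 40.3% to 43.3% in the 7 samples, Nop56 28.4% to 31.2% and Nop58 27.8% to 28.8%. Of the H/ACA core, Nhp2 made up 32.4% to 36.9%, Nop10 25.5% to 29.0%, Dkc1 21.8% to 23.9% and Gar1 13.1% to 15.3%. The genotypes overlapped in each of these 7 shares. The size of a share depends on the transcript lengths used, which are the same in every sample.

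**Figure D4:**
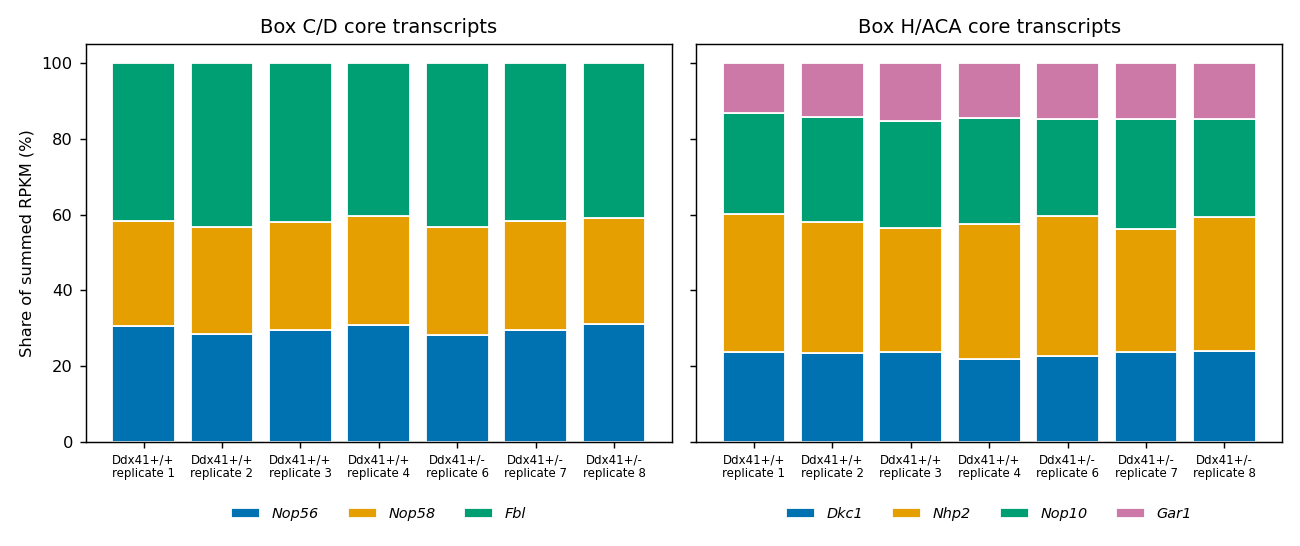
Share of the summed RPKM (y axis, %) that each transcript took within the box C/D core without Snu13 (left) and the box H/ACA core (right). Each sample has 1 stacked bar. Fbl stays between 40.3% and 43.3% and Gar1 between 13.1% and 15.3% in the 7 samples.

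Summed over the C/D core without Snu13, Ddx41+/+ samples reached 918 ± 36.8 CPM (SD, n = 4) and Ddx41+/- samples 926 ± 37.7 CPM (SD, n = 3). The H/ACA core summed to 618 ± 23.3 CPM (SD, n = 4) and 602 ± 30.3 CPM (SD, n = 3), and the assembly factors to 104 ± 4.81 CPM (SD, n = 4) and 97.7 ± 5.39 CPM (SD, n = 3). All 3 sums overlapped between the genotypes. The ratio of Naf1 to Gar1, the early and the late subunit at the same place in the H/ACA particle, was 0.237 ± 0.0084 (SD, n = 4) for Ddx41+/+, against 0.246 ± 0.0083 (SD, n = 3) for Ddx41+/- on the RPKM scale, which also overlapped.

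How far the members moved together over the 7 samples was described with Pearson correlations of log2 CPM, without a test, since all points share the same libraries and scaling. Over the 45 pairs the median was 0.22, and 28 pairs were positive. Gar1 and Naf1 were the most alike (r = 0.87, n = 7), and Dkc1 and Shq1 the least (r = -0.45, n = 7). The 3 pairs within the C/D core ran from 0.011 (Nop56 and Fbl) through 0.60 to 0.80 (Nop58 and Fbl), and the medians were 0.29 within the H/ACA core and 0.32 between the cores. The 3 other genes most like the mean of the members, among 9096 genes with a mean of at least 10 CPM, were Cfl1 (cofilin, r = 0.993), the ribosomal protein gene Rpl11 (r = 0.992) and Rnf130 (r = 0.985). The top of so many genes ranked over 7 samples has high r by selection alone, and shared regulation was not tested.

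**Figure D5:**
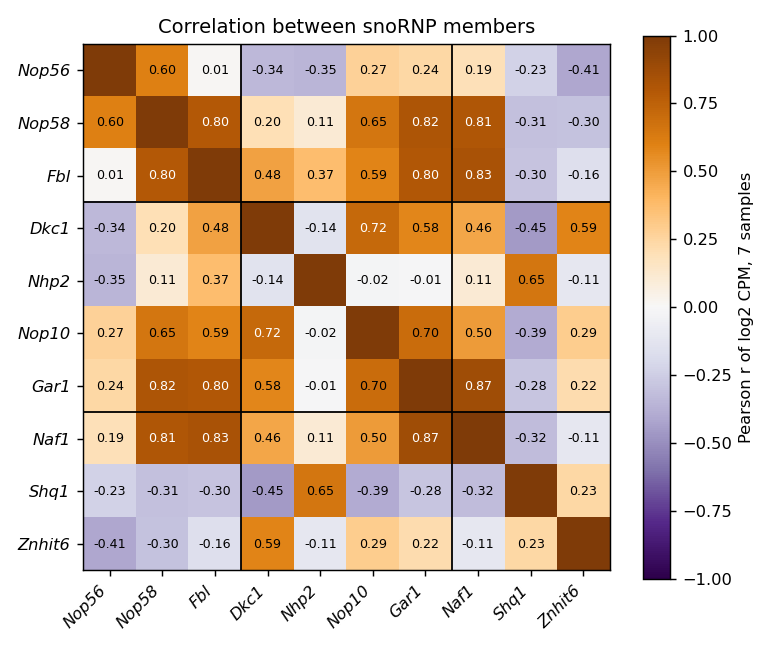
Pearson correlation of log2 CPM over the 7 samples for each pair of members, colored from -1 to 1, with lines between the C/D core, the H/ACA core and the assembly factors. Nop58, Fbl, Gar1 and Naf1 form the darkest orange group off the diagonal, with a highest value of 0.87 for Gar1 and Naf1, while Shq1 is negative with most members.

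The wider pathway comprised 26 further genes, covering the C/D protein Snu13, assembly and chaperone factors, nucleolar and Cajal body proteins, export factors and telomerase reverse transcriptase. The table listed 25 of them under a matching symbol and 24 were tested, since Fbll1 had no counts in any sample. In edgeR 0 of the 24 reached an adjusted p under 0.05, and 4 (16.7%) had an unadjusted p under 0.05, beside 10.6% of all genes. Their median log2 fold change was 0.017, with 14 above 0 and 10 below.

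Hsp90aa1, a chaperone that works with the R2TP complex in snoRNP assembly, had the highest log2 fold change of the list at 0.17 (SE 0.063, edgeR adjusted p = 0.352). The exportin gene Xpo1, whose product carries box C/D precursors toward the nucleolus, followed among those 4 genes at 0.15 (SE 0.060, adjusted p = 0.402) and was named after its value was seen. Rrp9, the U3-specific C/D protein, averaged 63.5 ± 2.40 CPM (SD, n = 4) with Ddx41+/+ cells, against 56.9 ± 1.97 CPM (SD, n = 3) with Ddx41+/- cells, without overlap, and missed the threshold (log2 fold change -0.16, SE 0.070, edgeR adjusted p = 0.431). Rrp9, Hsp90aa1 and Xpo1 were the 3 of 24 (12.5%) whose genotypes did not overlap, beside 10.1% of all genes.

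Tert, the reverse transcriptase of telomerase, had the lowest log2 fold change of the list at -0.69 (SE 0.31, edgeR adjusted p = 0.435). It was present at a low level in both genotypes, 3.30 ± 0.557 CPM (SD, n = 4) for Ddx41+/+ against 2.03 ± 0.887 CPM (SD, n = 3) for Ddx41+/-, and the genotypes overlapped. Snu13, the C/D core protein that binds the kink-turn of the guide first, had a log2 fold change of -0.048 (SE 0.068, edgeR adjusted p = 0.854), and Nolc1, a nucleolar chaperone of snoRNPs, of 0.063 (SE 0.056, adjusted p = 0.739).

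MYC factors are known activators of ribosome biogenesis genes, snoRNP proteins among them. Mycn fell in Ddx41+/-, from 31.6, 21.7, 23.5 and 22.1 CPM in Ddx41+/+ to 13.3, 14.6 and 11.02 CPM (log2 fold change -0.93, SE 0.146, edgeR adjusted p = 0.0157). Myc, which was far higher in CPM, was at 485 ± 50.6 CPM (SD, n = 4) and 413 ± 103 CPM (SD, n = 3), with overlapping genotypes (log2 fold change -0.24, SE 0.16, edgeR adjusted p = 0.675). The E-box CACGTG, the core site of MYC, was sought in 300-base RefSeq promoter windows (GRCm38.p6). It was in none of the 9 windows of the 8 members that have one, and in 7.15% of all 32851 windows on either strand. At that share none in 9 windows says little, and sites outside the windows were not searched. The ETS-type motif CCGGAAG was in a window of 3 of the 8, Gar1, Nhp2 and Shq1, and in 8.86% of all windows. The 3 of 8 counts genes and the 8.86% counts single windows, and enrichment of either motif was not tested.

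The summed neutrophil markers did not overlap between the genotypes, whereas most other marker lists did. The 11 neutrophil genes summed to 818 to 1337 CPM in Ddx41+/+ and 1422 to 2375 CPM in Ddx41+/-. Of these 11 genes 8 were higher without overlap, where 10.1% of all genes tested did not overlap in either direction. Mmp9 alone passed the edgeR test (log2 fold change 1.57, SE 0.21, adjusted p = 0.0068), while Cxcr2 had the lower mean in Ddx41+/-. The 12 G2/M genes summed to 2764 to 2989 CPM and 3013 to 3305 CPM, also without overlap, but 11 of the 12 overlapped singly and 0 of the 12 passed the edgeR test (smallest adjusted p 0.277). Most of that difference in the sum lay in Mki67 (means of 769 and 920 CPM) and Top2a (795 and 884 CPM), while 4 of the 12, among them Cdk1 (195 and 189 CPM) and Ccnb2 (126 and 122 CPM), had lower means in Ddx41+/-. The 12 S phase genes summed to 3866 to 3939 CPM and to 3824 to 3946 CPM.

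The 6 genes that mark the LSK fraction summed to 1463 to 1626 CPM in Ddx41+/+ and 1368 to 1502 CPM in Ddx41+/-, with overlap. Means were lower in Ddx41+/- for 5 of them, and 0 of the 6 passed the edgeR test (smallest adjusted p 0.355). Slamf1 alone did not overlap (7.27 to 10.5 CPM against 5.87 to 6.72 CPM), beside 10.1% of all genes tested. Summed B cell markers (6 genes) were at 33.9 to 49.3 CPM and 43.9 to 62.6 CPM, those of macrophages (4 genes) at 9.73 to 19.2 CPM and 14.99 to 22.8 CPM, and those of red cells (6 genes, with Hba-a1, Hbb-bs and Hbb-bt listed at 0) at 24.7 to 48.7 CPM and 35.4 to 58.0 CPM, all with overlap. In a bulk sample a change in cell makeup and a change in RNA per cell cannot be told apart, and the part of these markers in the members' levels was not tested.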

How the data were processed

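RNA from sorted LSK cells of 7 samples was sequenced after poly(A) selection. The values the authors deposited were unnormalized read counts, with a row for each gene symbol. The submitters' processing notes name FastQC 0.11.7, HISAT2 2.0.5, featureCounts 1.5.2 and mm10, while strand use and the handling of shared reads are not given in the sources used here. The labels name a stranded kit and the study's methods an unstranded one, so reads from opposite-strand neighbours that overlap Nop56, Dkc1 and Nhp2 may be included. A Ddx41+/- library numbered 5 was removed from the deposited counts and was not analysed here. Counts of samples differed beyond sampling noise in all 21 pairs (chi-square per gene at least 13.7, leaving out genes under 20 counts).

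Genotypes were compared in edgeR 4.0.16 under R 4.3.3 by a robust quasi-likelihood fit (TMM scaling, filterByExpr), with Benjamini-Hochberg adjustment over the 13340 genes tested and a threshold of 0.05. The biological coefficient of variation was 12.9%. Standard errors were derived from the fold change and its F statistic, and 95% intervals use the total degrees of freedom. CPM uses TMM-scaled library sizes, log2 CPM a prior count of 2, and RPKM the longest principal transcript in GENCODE M21. The script was tested on simulated data. Alternatives used DESeq2 1.42.0, limma 3.58.1, other scalings and filters, and each sample left out in turn. The members, the pathway and marker lists and the rule for named genes were chosen with earlier results of these data known. The rule covered all members, Ddx41, Snu13, Nolc1, Rrp9, Tert, Myc, Mycn, the highest and lowest fold change of the pathway list, snoRNA genes within members, the 3 genes most like the members, and the member pairs with the highest and lowest correlation. Promoter motifs and the snoRNA boxes were chosen after the data were seen.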

Additional observations from a re-analysis of the deposited data

Results flagged for a closer look

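Dixon's test over the 4 Ddx41+/+ samples marked 4 of 53 values above its 95% critical value, where chance gives about 1 in 20 (2.65 values). Nhp2 was lowest in replicate 3, at 144 CPM with the next sample at 150 CPM (gap over range 0.832). Hsp90aa1 was lowest in replicate 4, at 934 CPM with the next at 1019 CPM (0.901). Nolc1 was highest in replicate 4, at 330 CPM with the next at 323 CPM (0.852). The CPM ratio of the C/D core (without Snu13) to the H/ACA core was highest in replicate 4, at 1.60 with the next at 1.46 (0.919). That ratio was 1.53, 1.53 and 1.56 in the Ddx41+/- samples, which lay above Ddx41+/+ replicates 1 to 3 and below replicate 4.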

How the results depend on the processing

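The count of members called was 0 under all 16 alternatives, and over 150 refitted member values the adjusted p was at least 0.293 and the log2 fold change at most 0.31 in size. Ddx41 stayed lower and past the threshold in its 15 alternatives (log2 fold change -0.56 to -0.50). The median of the members was -0.028 to -0.0097 under other tools and scalings and -0.037 to 0.0040 with a sample left out. The count of all genes called, 29, was 1418 without adjustment, 15 with library totals, 91 without the filter, 156 with DESeq2, 10 with limma-voom, 14 without the robust fit, and 7 to 41 with a sample left out (7 without Ddx41+/+ replicate 2, 16 without replicate 3, 14 without Ddx41+/- replicate 7 and 9 without replicate 8). Of the other pathway genes, 4 were called without adjustment. Members near 0 changed sign in 19 of the 150 values. Gar1 was at 0.0021 with DESeq2 size factors, 0.0021 with DESeq2 and 0.0027 with limma-voom. Nop56 was at -0.0033 with upper-quartile scaling and -0.011 with library totals, and Nop58 at -0.0030 with library totals. With a sample left out Nop56 was at -0.021 to 0.040, Nop58 -0.024 to 0.056, Fbl -0.0098 to 0.072, Dkc1 -0.062 to 0.0041 and Gar1 -0.059 to 0.046. The cause was not tested. No paired analysis was made because the labels give no variable that pairs samples of the groups. With 4 and 3 samples, the intervals bound changes of the core transcripts more tightly than those of Shq1 and Znhit6, and snoRNA loci had too few counts to bound.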
